A study of Mus musculus with 3 samples.

Results

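Gold nanocages given together with hydroxyurea (HU) were compared with HU alone in RAW 264.7 cells, a mouse macrophage line that grew from an Abelson leukemia virus tumour in ascites. Both cultures received 0.5 mM HU for 12 hours, and the only labelled difference between them was the nanocages, which were added at the same moment as HU. Each condition was 1 RNA-seq library, so no difference below has a replicate check and no p-value was computed. A control library without either agent is used only to place values. The series holds no library of nanocages alone, so an effect of nanocages by themselves cannot be told apart from one that depends on HU. How much of the nanocages was given, and in what carrier, is not stated in the labels. Genes entered the comparison when their level reached 5 FPKM (fragments per kilobase of exon, scaled to the library total) in either library. This gave 7845 of 46078 genes, of which 7301 were protein-coding. Both libraries reached the minimum for 7626 of them, the HU library alone for 97 and the library with nanocages alone for 122. Close to the limit, Ube2w entered with 4.87 FPKM in HU and 5 FPKM with nanocages, while Cntnap1 with 4.99 and 4.77 FPKM did not.

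HU blocks ribonucleotide reductase, which supplies deoxynucleotides, and so stalls DNA replication and calls up p53 target genes. Gold nanocages are hollow, porous gold particles made by replacing silver templates, and macrophages take particles up by phagocytosis and endocytosis and carry them to lysosomes. Macrophages answer metals through metallothioneins and zinc exporters under the metal-sensing factor MTF1, and electrophiles and oxidants through NRF2 and the heme-degrading enzyme HMOX1. The series frames the nanocages as a treatment that protects cells from HU through autophagy.

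The cells carried macrophage markers in every library. Of 14 macrophage markers 13 reached 5 FPKM, all but Adgre1, and their summed level was 3509 FPKM in HU and 3356 FPKM with nanocages. Of 14 lymphocyte markers 1 did, Ighm, and 8 had no read in either library, among them Cd3e. No marker of fibroblasts, epithelium, granulocytes, mast cells or dendritic cells reached the minimum. The counts summed to 20057329 in HU, 18644333 with nanocages and 14990564 in control, so that 1 read stood for 0.0499, 0.0536 and 0.0667 CPM (reads scaled to the summed count of the library). A count of 0 allows up to 3 counts, which is 0.150, 0.161 and 0.200 CPM in these libraries.

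Among protein-coding genes with over 1000 reads in both libraries, the higher side was led by Ppp1r14b, a phosphatase inhibitor, at 2.04 times the HU level, followed by the metallothionein gene Mt2 and the heme oxygenase gene Hmox1. On the lower side Rps27rt, a copy of a ribosomal protein gene, and the transporter gene Slco4a1 came first. In bulk RNA, a difference in fewer cells and a smaller one in all cells cannot be told apart. Below, a ratio is the CPM with HU and nanocages divided by the CPM with HU, with an exact 95% interval from the reads of both libraries, and genes whose interval leaves out 1 are called above or below counting error. The interval covers counting error only, since reads without molecular identifiers are not independent molecules and no culture was repeated. The log2 ratio is taken on FPKM with 1 FPKM added, which understates the difference of low genes. Its median over all 7845 genes was 0.00, and from the 5% to the 95% point of the distribution it ran from -0.15 to 0.16.

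**Figure D1:**
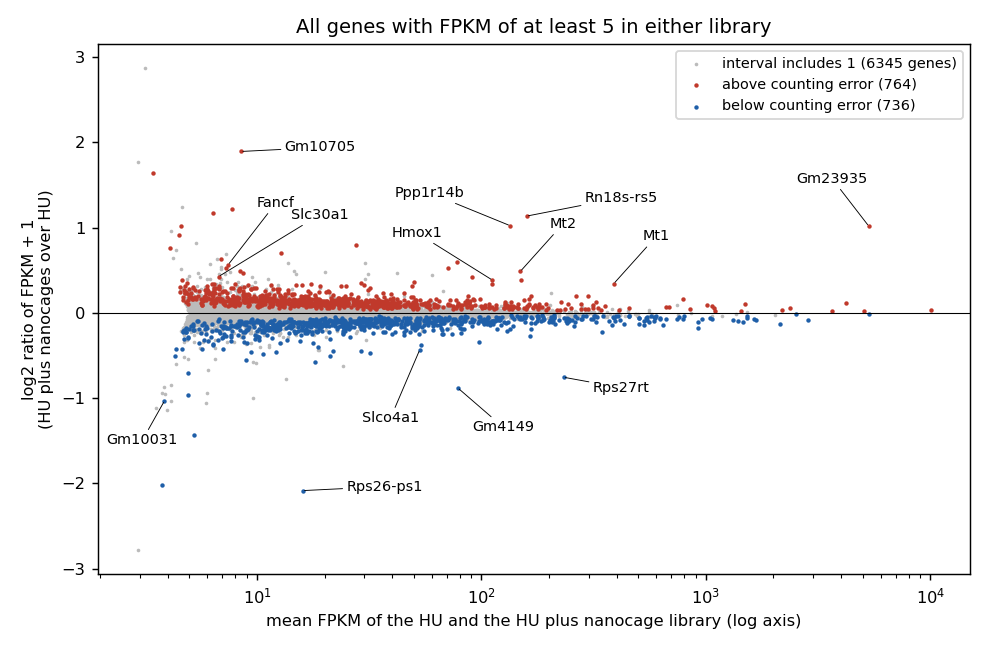
Each point is 1 of the 7845 genes, with the mean FPKM of the HU library and the library with HU and nanocages on a log axis and the log2 ratio of FPKM + 1 between them on the vertical axis. The 764 red genes lay above and the 736 blue genes below counting error, and most points sit close to 0 while Ppp1r14b, Mt2, Mt1, Hmox1 and Slco4a1 stand apart at high counts.

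The libraries were close. On the log2 scale 87.5% of the genes lay within 1.1-fold of each other and 97.0% within 1.2-fold, and 21 genes differed by at least 2-fold. For HU against control the same genes gave 62.5% and 84.6%. Of the 7845 genes 764 (9.74%) were above and 736 (9.38%) below counting error, where counting error alone puts at most 2.5% on each side. With the additional demand of 1.2-fold there were 96 higher genes (1.22%) and 70 lower genes (0.892%). At 1.5-fold there were 16 higher (0.204%) and 11 lower (0.14%), of which 4 and 2 were protein-coding. The split depends on the scaling. The TMM factor of edgeR lowered every log2 ratio of CPM by 0.0121, and 578 genes were then above and 967 below. A gene that entered through 1 library alone had its direction favoured by the minimum. Of the genes above counting error 34 entered only through the library with nanocages, and of those below 25 only through HU. The named ones are Gm10705, Gm9836, Rn7sk, Gm23136, Gm12666, Msantd3, Dusp6 and Nfkbie on the higher side and Abcg1, Gla, Prr11, Hdhd3, Pam16, Paqr4, Gm10031, Gm16350, Gm25945 and Mir763 on the lower.

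Of the 15 highest protein-coding genes 3 were on the list of metal handling genes, Mt2, Slc30a1 and Mt1. Mt2 and Mt1 encode metallothioneins, small proteins that bind zinc, copper and cadmium, and Slc30a1 encodes the zinc exporter ZnT1 of the plasma membrane. Matches to the core of the metal response element are shown in capitals in their RefSeq promoters (GRCm38.p6), which run 5′ to 3′ on the plus strand from 250 bases before to 50 after the start. The windows are chr8:94172368-94172667 for Mt2, chr8:94178839-94179138 for Mt1 and chr1:191906531-191906830 for Slc30a1. They are printed because these genes share a known regulator and were higher together.

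Mt2: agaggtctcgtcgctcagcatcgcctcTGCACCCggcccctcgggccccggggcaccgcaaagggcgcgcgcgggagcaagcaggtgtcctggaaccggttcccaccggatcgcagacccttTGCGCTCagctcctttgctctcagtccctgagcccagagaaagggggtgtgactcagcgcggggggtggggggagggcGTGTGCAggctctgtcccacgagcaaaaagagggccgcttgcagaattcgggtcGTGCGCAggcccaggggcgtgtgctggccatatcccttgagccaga
Mt1: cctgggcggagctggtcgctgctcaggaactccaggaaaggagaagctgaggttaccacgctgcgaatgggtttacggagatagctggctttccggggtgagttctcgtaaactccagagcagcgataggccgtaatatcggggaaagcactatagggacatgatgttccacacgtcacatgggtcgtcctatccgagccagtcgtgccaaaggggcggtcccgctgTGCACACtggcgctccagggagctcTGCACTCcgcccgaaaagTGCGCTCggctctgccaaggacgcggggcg
Slc30a1: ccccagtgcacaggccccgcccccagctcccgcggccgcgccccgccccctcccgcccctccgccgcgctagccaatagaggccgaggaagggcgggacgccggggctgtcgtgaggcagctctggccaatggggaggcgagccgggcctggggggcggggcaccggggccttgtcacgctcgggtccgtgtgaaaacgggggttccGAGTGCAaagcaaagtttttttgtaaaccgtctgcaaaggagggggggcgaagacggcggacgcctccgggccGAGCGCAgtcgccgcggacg

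The core was searched as TGCACNC and TGCGCNC on both strands, and the windows held 4, 3 and 2 matches. In the Mt1 window all 3 lie between 23 bases before and 26 bases after the start that RefSeq annotates. Whether transcription begins there was not tested, and sequence outside the windows was not searched. A match is common: 25.7% of all 32851 mouse promoter windows in the table held at least 1, as did 36.8% of the 7270 windows of genes in this comparison. Of the 15 highest protein-coding genes below, 11 had 14 windows in the table and 4 windows held a match (28.6%), against 7 of 15 windows (46.7%) for 11 of the 15 lowest. The core of the antioxidant response element, TGACNNNGC, was in 5 of the 14 (35.7%) and 1 of the 15 windows (6.67%), against 12.4% of all windows and 14.8% of those of compared genes. These 5 windows belong to Cebpb, Fancf, Lcmt1, Mt2 and Slc30a1, none of them on the NRF2 list below, and Hmox1 had no window in the table. The genes were picked by their ratios, and a role of NRF2 was not tested.

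Mt2 stood at 97.1 FPKM in control, 124 in HU and 174 with HU and nanocages. Its reads were 1383 in HU and 1806 with nanocages, a ratio of 1.40 with an interval of 1.31 to 1.51. Mt1, its neighbour on chromosome 8, stood at 265, 343 and 434 FPKM in the same order. Both genes thus rank control, HU, HU with nanocages from low to high. The Mt1 ratio was 1.27 (interval 1.21 to 1.33) on 3710 and 4374 reads.

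Slc30a1 had 2.65 FPKM in control, 5.61 in HU and 7.88 with nanocages. Its 590 and 770 reads gave a ratio of 1.40 (1.26 to 1.57). This zinc exporter therefore followed the same order of the 3 libraries as the metallothioneins. Its exons overlap 1700034H15Rik on the other strand, which had only 19 and 18 reads.

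Of the 28 genes on the metal handling list 22 were in the comparison, with 5 above counting error (22.7%, against 9.74% of all genes) and none below (9.38% of all genes). Of the 5, 3 were at least 1.2-fold higher, against 1.22% of all genes. The other 2 were Slc31a2, a copper transporter of internal membranes, with a ratio of 1.14 (1.02 to 1.27), and Slc30a9. The median log2 ratio of the list was 0.02 against 0.00 for all genes, so most of its genes lay within counting error. With the TMM factor 5 genes were above and 1 was below.

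Hmox1, the inducible enzyme that breaks heme down to iron, carbon monoxide and biliverdin, had the most reads of the 15 highest protein-coding genes. It stood at 65.0 FPKM in control, 96.8 in HU and 127 with nanocages, on 4196 and 5105 reads in the latter pair. The ratio was 1.31 (1.26 to 1.36). Among 18 genes of the iron and heme list 4 were above counting error (22.2%, against 9.74% of all genes) and 1 below (5.56%, against 9.38%). The list median was 0.02. Ferritin is the iron store of the cell, and its light chain gene Ftl1 was the lower one, at 1522 FPKM in HU and 1412 with nanocages and a ratio of 0.927 (0.914 to 0.941). Tfrc, the transferrin receptor that brings iron in, stood at 109 and 114 FPKM, a ratio of 1.05 (1.02 to 1.07). With the TMM factor 2 of the 18 genes were above and 1 below, and with the GC trend removed 3 and 2.

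The NRF2 and thiol list had 8 of 30 genes above counting error (26.7%, against 9.74% of all genes) and 1 below (9.38% of all genes), none of them by 1.2-fold, with a median of 0.02. Slc7a11, the cystine importer that feeds glutathione synthesis, went from 6.16 to 7.37 FPKM, a ratio of 1.2 (1.12 to 1.28). Gclc, the catalytic subunit of the first step of that synthesis, went from 45.5 to 52.0 FPKM, a ratio of 1.14 (1.09 to 1.2). Srxn1, which repairs overoxidised peroxiredoxins, had 24.7 FPKM in control, 42.7 in HU and 47.5 with nanocages, a ratio of 1.11 (1.05 to 1.18). In the list of selenoproteins and lipid peroxide defence 2 of 15 were above (13.3%) and none below. Acsl4, which activates polyunsaturated fatty acids for membrane lipids, was 1 of these, with a ratio of 1.10 (1.04 to 1.16).

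**Figure D2:**
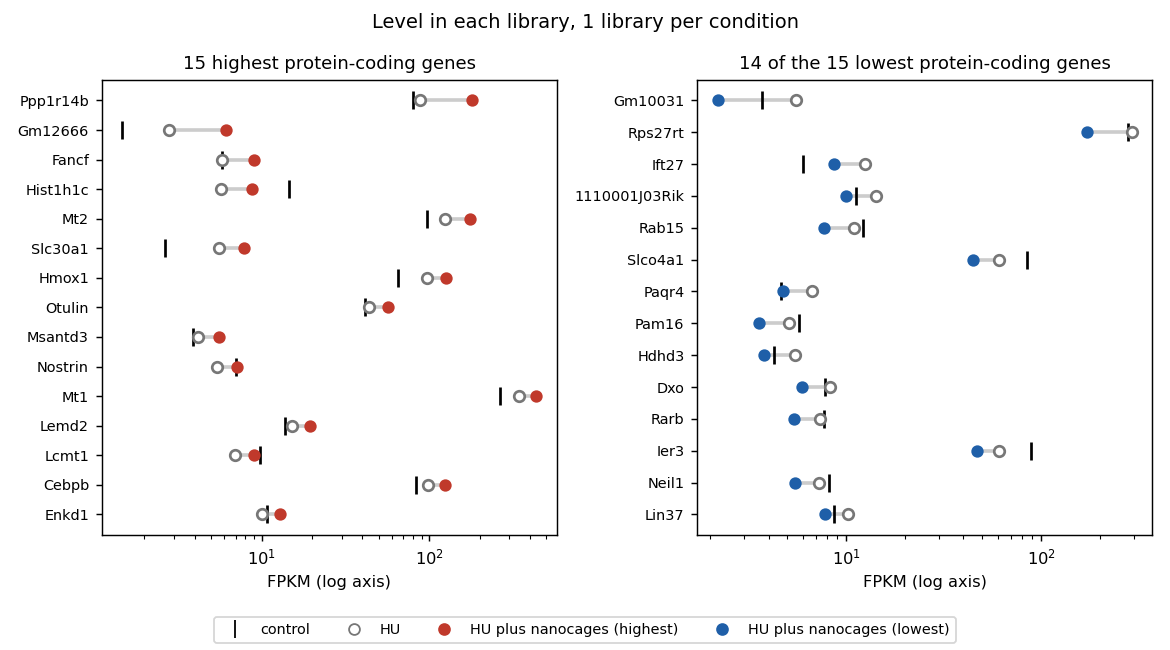
FPKM on a log axis in the control library (black tick), the HU library (open circle) and the library with HU and nanocages (filled circle) for the 15 highest and 14 of the 15 lowest protein-coding genes beyond counting error. Mt2, Mt1, Slc30a1 and Hmox1 step up from control to HU to HU with nanocages, while Slco4a1 and Ier3 step down in the same order.

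By the log2 ratio of FPKM + 1 the highest protein-coding gene was Ppp1r14b, an inhibitor of protein phosphatase 1 on chromosome 19 (6974968 to 6977324, mm10). It stood at 80.5 FPKM in control, 88.2 in HU and 180.1 with nanocages. HU thus lay close to control. The reads were 1625 and 3086 and the ratio 2.04 (1.92 to 2.17). The processed pseudogene Gm7332 matches 454 bases of it at 99.6% identity, and that copy moved from 876 to 729 reads. Both summed gave a ratio of 1.64 (1.56 to 1.73). An exon of Ppp1r14b also overlaps Plcb3 on the other strand, with a ratio of 0.987.

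Fancf, a subunit of the Fanconi anemia core complex that acts on DNA crosslinks and stalled forks, had 5.84 FPKM in control, 5.81 in HU and 9.07 with nanocages. Its ratio was 1.56 (1.30 to 1.88) on 197 and 286 reads. It overlaps Gas2 on the other strand, whose ratio was 1.01, and whether strand was used in the counting is not stated in the labels. Hist1h1c, which encodes linker histone H1.2, had 14.7 FPKM in control, 5.75 in HU and 8.73 with nanocages. Its ratio was 1.52 (1.25 to 1.85), so the value with nanocages lay between the other libraries.

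Otulin encodes the enzyme that removes linear ubiquitin chains and restrains NF-kappa-B signalling. It had 41.5 FPKM in control, 43.7 in HU and 56.7 with nanocages, and a ratio of 1.30 (1.2 to 1.40). Lemd2, an inner nuclear membrane protein, had 13.7, 15.3 and 19.6 FPKM and a ratio of 1.28 (1.16 to 1.41). Both had nearly the same level in control and HU. Cebpb, a leucine zipper factor of macrophage activation and stress, had 82.9, 99.0 and 125 FPKM. Its ratio was 1.26 (1.2 to 1.33) on 2985 and 3505 reads, while Tmem189, which overlaps it on the other strand, had a ratio of 0.914.

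The other genes of the highest 15 had fewer reads. Msantd3, Nostrin, Lcmt1 and Enkd1 had 165 to 258 reads in HU and ratios of 1.28 to 1.34. Lcmt1 methylates the catalytic subunit of protein phosphatase 2A, and Nostrin binds nitric oxide synthase of endothelium. Nostrin stood at 7.07 FPKM in control, 5.41 in HU and 7.13 with nanocages, which is near its control level again. Gm12666, an annotated coding gene of 43 and 88 reads, had a ratio of 2.20 and is treated with its parent Larp7 below.

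Of the 15 lowest protein-coding genes the one with the most reads was Slco4a1, an organic anion transporter that carries thyroid hormone, on chromosome 2 (180456245 to 180474867, mm10). It stood at 84.4 FPKM in control, 61.1 in HU and 45.0 with nanocages. The 5884 and 4027 reads gave a ratio of 0.736 (0.707 to 0.767). Ier3, an immediate early gene that modulates cell survival, stood at 88.5, 60.8 and 46.7 FPKM. Its ratio was 0.767 (0.706 to 0.833). Both genes were thus highest in control and lowest with nanocages.

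Rab15, a small GTPase of early and recycling endosomes, had 12.1 FPKM in control, 11.0 in HU and 7.74 with nanocages. Its ratio was 0.703 (0.637 to 0.776) on 1019 and 666 reads. Ift27, a GTPase of intraflagellar transport in cilia, had 6.0, 12.5 and 8.69 FPKM, so the value with nanocages lay between control and HU. Its ratio was 0.695 (0.567 to 0.849). Rarb, a retinoic acid receptor, had 7.72, 7.35 and 5.41 FPKM and a ratio of 0.736 (0.635 to 0.854). Its exons overlap Top2b on the other strand, which had a ratio of 1.05.

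Among the remaining low genes, Neil1 removes oxidised bases from DNA and had a ratio of 0.746 (0.617 to 0.901). Dxo, which clears faultily capped RNA, had a ratio of 0.717 (0.601 to 0.855), and Skiv2l on the other strand had 0.917. Lin37, a subunit of the DREAM complex that represses cell cycle genes, had a ratio of 0.759 (0.630 to 0.912). Paqr4, Hdhd3 and 1110001J03Rik had ratios of 0.708, 0.700 and 0.708 on 149 to 336 reads in HU. Pam16, a part of the mitochondrial import motor, had a ratio of 0.697 (0.490 to 0.983), and summed with Gm9803, which is identical over 534 bases, 0.663 (0.492 to 0.887).

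Several of the extreme ratios belonged to genes with a nearly identical copy elsewhere in the genome. How reads that match more than 1 place were counted is not stated in the labels. Gm10031 had 295 reads in HU and 109 with nanocages, a ratio of 0.397. It is 99.6% identical over 2655 bases to Csnk2a1, the catalytic alpha subunit of casein kinase II, which went from 2073 to 2117 reads. Summed, the ratio was 1.01 (0.954 to 1.07), with most of the reads from Csnk2a1. Gm12666 and Larp7, a protein of the 7SK particle, gave 1.04 (0.962 to 1.12) together.

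A sum lies near the ratio of the copy that holds most of its reads, so it does not show how reads moved between copies. Rps26-ps1 went from 218 to 42 reads, a ratio of 0.207, while Rps26 itself had 20796 and 20093 reads. The pseudogene thus gave 218 of the 21014 reads of their sum in HU, and the ratio of that sum was 1.03 (1.01 to 1.05). Gm10705 went from 28 to 120 reads, a ratio of 4.61. Its parent Ube2l3, a ubiquitin-conjugating enzyme, had 3982 and 3775 reads and a ratio of 1.02, and the sum over all copies gave 1.05 (1.01 to 1.10). Gm10145, another pseudogene of Ube2l3, was also higher, with 25 and 56 reads and a ratio of 2.41 (1.48 to 4.03). Gm9836 went from 5 to 23 reads, while Sumo2, 99.5% identical over 216 bases, had 168 and 115 reads and a ratio of 0.736 (0.576 to 0.939). The pseudogene Gm10241, with a ratio of 1.02, held 1124 of their 1314 summed reads in HU. The sum over all copies gave 1.00. Gm4149 went from 741 to 371 reads, and with Rpl37a and other copies it was 0.960 (0.922 to 0.999).

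Rps27rt, a retrotransposed copy of the small subunit gene Rps27, stood at 279 FPKM in control, 292 in HU and 173 with nanocages. Its reads were 2167 and 1191 and the ratio 0.591 (0.550 to 0.635). It is identical to Rps27 over 341 bases, and Rps27 had 201 and 154 reads. Rps27rt held 2167 of the 2368 summed reads in HU, and the sum over the copies gave 0.611 (0.571 to 0.654).

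**Figure D3:**
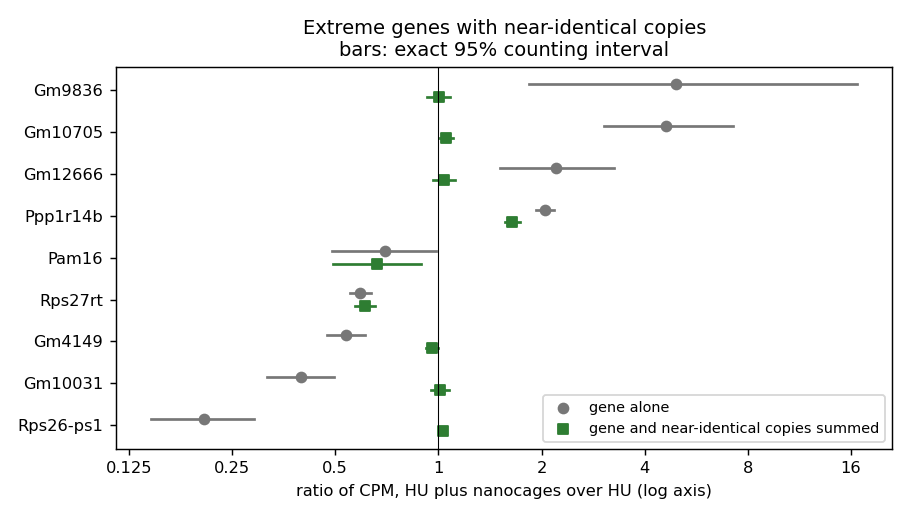
Ratio of CPM on a log axis for 9 extreme genes with near-identical copies, alone (grey circle) and summed with those copies (green square), with exact 95% counting intervals. The sums of 6 genes lie between 0.960 and 1.05, while Ppp1r14b has 1.64, Rps27rt 0.611 and Pam16 0.663, and each sum follows the copy with most reads.

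RNA classes differed in spread. Pseudogenes (346 genes) had 8.38% above and 13.9% below counting error and 11 of the 27 genes beyond 1.5-fold. The 93 small or structural RNA genes had a median of 41 reads over both libraries, and 5% to 95% of their log2 ratios lay between -1.04 and 1.06. In this class 7 were at least 1.5-fold higher and 2 lower. Among the highest was Rn18s-rs5, an 18S ribosomal RNA sequence on chromosome 17, at 122 FPKM in control, 99.3 in HU and 219 with nanocages. Its ratio was 2.21 (2.12 to 2.30) on 3681 and 7555 reads, and its share of all reads went from 0.0184% to 0.0405%. Gm23935, a short gene that the annotation calls a miRNA and that was chosen here after its values were seen, went from 4020 to 7563 reads, a ratio of 2.02 (1.95 to 2.10). The part of ribosomal RNA carry-over in these values was not tested.

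Rn7sk, the 7SK RNA that holds the elongation factor P-TEFb inactive, had 28 and 69 reads and a ratio of 2.65 (1.69 to 4.27). Gm23136 had 7 and 17 reads. On the lower side Mir763, Gm25945 and Gm16350 had 16, 22 and 61 reads in HU and 2, 6 and 25 with nanocages. Such low counts leave wide intervals, from 0.0150 to 0.572 for Mir763. Only 4 of the 33 listed structured RNA genes reached the minimum, 2 of them, Rn18s-rs5 and Rn7sk, above counting error and none below. Rn7sk entered only through its level with nanocages, 11.2 FPKM against 4.22 in HU, which favours a higher value. Of 19 long non-coding genes 2 were above (10.5%, against 9.74% of all genes) and 1 below (5.26%, against 9.38%). The lower one was Malat1, a nuclear RNA of speckles, which went from 12305 to 9686 reads and from 87.8 to 74.4 FPKM, a ratio of 0.847 (0.824 to 0.870).

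**Figure D4:**
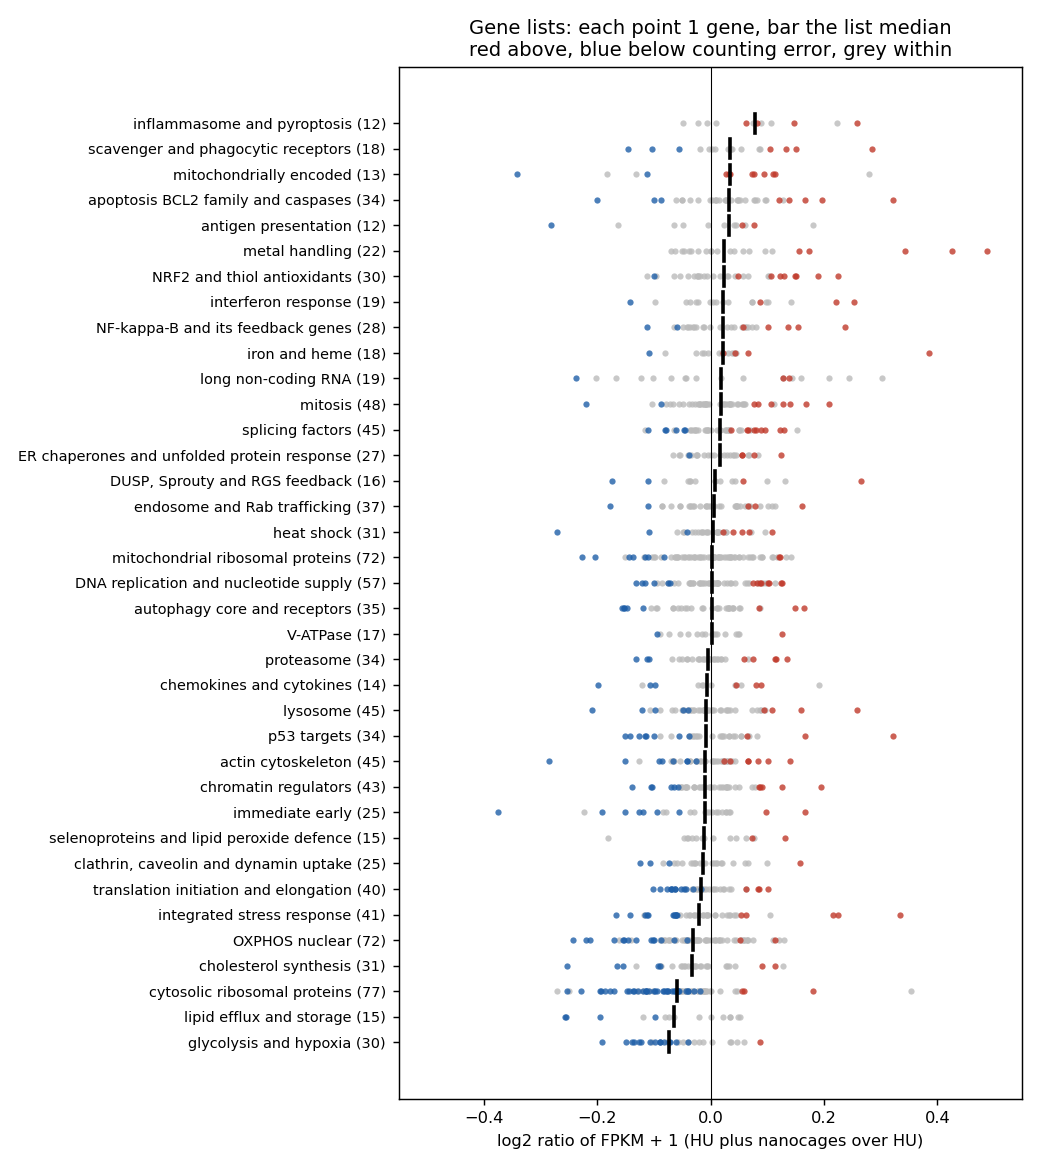
Log2 ratio of FPKM + 1 for the compared genes of 37 gene lists, with list size in brackets, ordered by the list median (black bar). Red and blue genes lay above and below counting error, and the glycolysis, lipid efflux and cytosolic ribosomal protein lists have their medians farthest to the left, between -0.07 and -0.06.

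Among genes for ribosomal proteins and glycolysis more lay below than above counting error, most of them by less than 1.2-fold. Of 77 genes for cytosolic ribosomal proteins 37 (48.1%, against 9.38% of all genes) lay below counting error and 3 (3.90%, against 9.74%) above. In the fifth of protein-coding genes with the highest mean FPKM, where more reads make small differences visible, 17.9% lay below. The 77 genes had a median of -0.06 against 0.00 for all genes. Their summed share of reads was 3.29% in HU and 3.18% with nanocages. Only 1 of the 77 was at least 1.2-fold lower, Rps2, with 239 and 181 reads and a ratio of 0.815, and with the GC trend removed its interval included 1. Summed with its many pseudogene copies Rps2 had a ratio of 0.945 (0.928 to 0.963). Rps13 and Rps29 had 69 and 152 reads in HU, and summed with their copies they gave 1.03 and 1.02, with intervals that include 1.

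Of 30 glycolysis and hypoxia genes 15 (50%, against 9.38% of all genes) were below counting error and 1 (3.33%, against 9.74%) above. Their median was -0.07 and none reached 1.2-fold. Pgk1, which makes the first ATP of glycolysis, went from 87.7 to 76.7 FPKM, a ratio of 0.874 (0.834 to 0.916). Hk2, which phosphorylates glucose, went from 26.1 to 23.6 FPKM, a ratio of 0.905 (0.859 to 0.953). Slc2a1, the glucose carrier GLUT1, had 38.9 FPKM in control, 55.5 in HU and 50.4 with nanocages, a ratio of 0.909 (0.867 to 0.952). Ak4, a mitochondrial adenylate kinase, had a ratio of 0.889 (0.793 to 0.995). All 4 thus lay below counting error by less than 1.2-fold.

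The nuclear genes of oxidative phosphorylation had 14 of 72 below (19.4%, against 9.38% of all genes) and 2 above (2.78%, against 9.74%). Their median was -0.03. They are short, with a median exonic size of 1514.5 bases. With the trend over exonic size removed only 8 of the 72 were below, where 9.37% of all genes were. With the GC trend removed 13 were below. Ndufa2 and Ndufs3 of complex I had ratios of 0.844 (0.761 to 0.935) and 0.858 (0.786 to 0.937). Translation factors had 13 of 40 below (32.5%) and 4 above (10%), among them Eif3k at 0.932 and Eif3a at 1.07. Mitochondrial ribosomal protein genes had 7 of 72 below (9.72%) and 2 above (2.78%), with a median of 0.00. Mrps16 was the lowest of these, with a ratio of 0.852 (0.749 to 0.967).

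The mitochondrially encoded genes went the other way in number. Of 13 genes 8 were above counting error (61.5%, against 9.74% of all genes) and 2 below (15.4%, against 9.38%). The mitochondrial chromosome held 3.07% of reads in control, 3.26% in HU and 3.38% with nanocages. Against that, mt-Co2, a subunit of cytochrome oxidase, went from 1491 to 1091 reads, a ratio of 0.787 (0.727 to 0.852). Together with its nuclear copy Gm28661 and a further copy the ratio was 0.822 (0.767 to 0.881). These transcripts are poor in G and C, with a median of 36.0%, and with the trend over GC content removed the count was 2 above and 7 below.

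**Figure D5:**
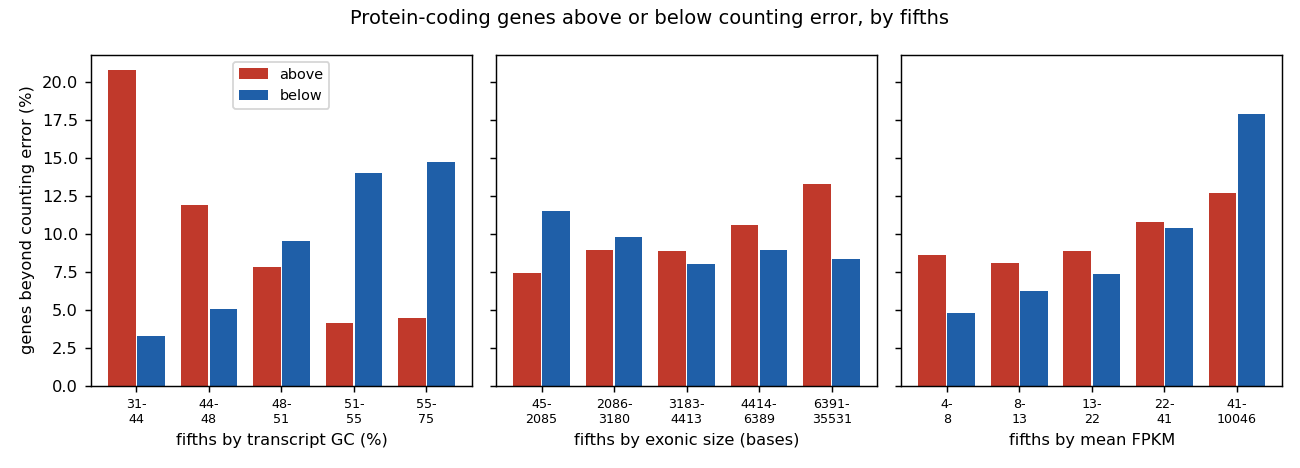
Percentage of protein-coding genes above (red) and below (blue) counting error in 5 groups of equal size by the GC content of the longest transcript, by exonic size in bases and by mean FPKM. From the lowest to the highest GC group the higher genes go from 20.7% to 4.45% and the lower genes from 3.29% to 14.7%.

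Transcript composition moved with the difference across the whole set. With the protein-coding genes split into 5 groups of equal size, in the group with the least GC (31.0% to 44.0%) 20.7% were above and 3.29% below counting error, and in the group with the most (55.4% to 74.7%) 4.45% and 14.7%. The medians were 0.04 and -0.02. By exonic size the shortest group had 7.39% above and 11.5% below, and the longest 13.3% and 8.36%. By level, the highest group had 12.7% above and 17.9% below, where more reads make small differences visible. The part of RNA quality or library preparation in this trend was not tested. For the metal and heme genes the GC content was 46.2% to 55.6%, and removing the trend left Mt2 at a log2 ratio of 0.51, Slc30a1 at 0.41, Hmox1 at 0.40 and Mt1 at 0.36, beside 0.49, 0.43, 0.38 and 0.34 before. For ribosomal protein and glycolysis genes the counts below became 35 and 13. Among the genes named here, Tfrc, Msr1, Ndc80, Dbf4, Cdkn1a, Bad, Atg4d, Rps2 and Gm23136 were then within counting error.

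Apart from the surface receptors given next, genes by which a macrophage takes up and digests particles passed counting error about as often as all genes (9.74% above, 9.38% below). Clathrin, caveolin and dynamin uptake had 1 of 25 above (4%) and 3 below (12%). Endosome and Rab trafficking had 3 above (8.11%) and 2 below (5.41%) of 37. The proton pump of lysosomes (V-ATPase) had 1 and 1 of 17 (5.88% each), and the lysosome list 4 and 5 of 45 (8.89% and 11.1%). Their medians ran from -0.01 to 0.01. Among those past the interval, Dab2, a clathrin adaptor, had a ratio of 1.12 (1.06 to 1.19), and Smpd1, the acid sphingomyelinase, went from 7.84 to 9.57 FPKM, a ratio of 1.22 (1.06 to 1.41). Gla, the lysosomal alpha-galactosidase, went from 5.07 to 4.25 FPKM, a ratio of 0.839 (0.711 to 0.990). Vps26a, of the retromer that returns receptors from endosomes, had a ratio of 1.12 (1.06 to 1.19).

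The list of scavenger, phagocytic and complement receptors had 4 of 18 above (22.2%, against 9.74% of all genes) and 3 below (16.7%, against 9.38%). Its median was 0.03. C3ar1, the receptor of complement C3a, went from 11.0 to 13.6 FPKM, a ratio of 1.24 (1.13 to 1.35). Cd36 and Msr1, scavenger receptors for oxidised lipoprotein, had ratios of 1.11 (1.07 to 1.15) and 1.10 (1.04 to 1.17). Cd14, the co-receptor for lipopolysaccharide, was lower, at 554 FPKM in HU and 501 with nanocages, a ratio of 0.904 (0.884 to 0.924).

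Autophagy is the process named in the title of the series. Its list had 3 of 35 genes above counting error (8.57%, against 9.74% of all genes) and 5 below (14.3%, against 9.38%). The list median was 0.00. Map1lc3b, which encodes the LC3B protein of the autophagosome membrane, had 5.67 FPKM in HU and 5.68 with nanocages, a ratio of 1.00 (0.908 to 1.10). Sqstm1, the cargo receptor p62, had 150 FPKM in control, 155 in HU and 165 with nanocages, a ratio of 1.06 (1.03 to 1.09). Stx17, the syntaxin that fuses autophagosomes with lysosomes, had a ratio of 1.14 (1.03 to 1.27). Gabarapl2, Atg4d and Vamp8, also on the autophagy list, had ratios of 0.893, 0.894 and 0.893. Autophagic flux is set largely by proteins, which were not measured.

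Inflammasome genes had the highest median of the lists with at least 5 genes, 0.08, with 4 of 12 above counting error (9.74% of all genes) and none below. With the TMM factor 3 were above, and neither with it nor with the GC trend removed was any gene 1.2-fold higher. Casp1, the protease that matures interleukin 1 beta, went from 18.9 to 22.8 FPKM, a ratio of 1.21 (1.08 to 1.35). P2rx7, the ATP receptor that triggers the inflammasome, had a ratio of 1.13 (1.01 to 1.26). Il18, with 127 and 140 reads, had a ratio of 1.19 with an interval of 0.926 to 1.52, which includes 1. Against control the order differed between genes: Casp1 stood at 21.6 FPKM in control, below its level with nanocages, and P2rx7 at 3.48, below both treated libraries.

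Among NF-kappa-B genes 5 of 28 were above (17.9%, against 9.74% of all genes) and 2 below (7.14%, against 9.38%). The inhibitors Nfkbie at 1.22 (1.01 to 1.48) and Nfkbib at 1.10 (1.02 to 1.2) were among those above. Chemokines and cytokines had 3 above and 3 below of 14 (21.4% each). Nos2, the inducible nitric oxide synthase placed in that list, went from 49.2 to 42.7 FPKM, a ratio of 0.869 (0.830 to 0.909). Interferon response genes had 3 of 19 above (15.8%) and 1 below (5.26%). Oasl1 had a ratio of 1.21 (1.07 to 1.37), Oas2 1.19 (1.07 to 1.31) and Ifi27 0.905 (0.848 to 0.966). Antigen presentation had 2 of 12 above (16.7%) and 1 below (8.33%), the latter H2-M3, a class Ib molecule, at 0.797 (0.641 to 0.991).

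Genes of stress signalling split within their lists. The integrated stress response had 5 of 41 above (12.2%, against 9.74% of all genes) and 11 below (26.8%, against 9.38%), with a median of -0.02. Nupr1, a stress-induced chromatin protein, had 18.8 FPKM in control, 11.6 in HU and 13.7 with nanocages, a ratio of 1.17 (1.05 to 1.32). Psph, the last enzyme of serine synthesis, had a ratio of 0.883 (0.814 to 0.959). Immediate early genes had 2 of 25 above (8%) and 7 below (28%), with Btg1, an antiproliferative factor, at 0.874 (0.847 to 0.902). The feedback regulators of the DUSP, Sprouty and RGS families had 2 above and 2 below of 16 (12.5% each). Dusp6, the phosphatase of ERK, had 9.11 FPKM in control, 4.73 in HU and 5.89 with nanocages, a ratio of 1.25 (1.05 to 1.47). Chaperones of the ER had 4 of 27 above (14.8%) and 1 below (3.70%), with Hsp90b1 at 1.09 (1.07 to 1.11). Heat shock genes had 5 of 31 above (16.1%) and 3 below (9.68%), with Hspa4l at 0.813 (0.731 to 0.904).

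Of 4 genes fixed as markers of the response to HU, Cdkn1a, Mdm2, Rrm2 and Plk1, each had nearly the same level with nanocages as with HU alone. Cdkn1a, the p53 target that halts the cell cycle, stood at 63.0 FPKM in control, 412 in HU and 401 with nanocages, a ratio of 0.974 (0.954 to 0.995), and with the GC trend removed its interval included 1. Mdm2, the ubiquitin ligase of p53, stood at 26.1, 172 and 174 FPKM, a ratio of 1.01 (0.990 to 1.03). Rrm2, a subunit of the enzyme that HU blocks, stood at 113, 142 and 140.3 FPKM, a ratio of 0.991 (0.960 to 1.02). For these 3 genes the library with nanocages sat beside HU and away from control. Plk1, a kinase of mitosis, stood at 64.6, 13.0 and 13.2 FPKM, a ratio of 1.02 (0.904 to 1.15). Other genes that differed between control and HU did differ with nanocages, among them Fas, Slc30a1, Ift27 and Hist1h1c.

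The p53 target list had 3 of 34 above (8.82%, against 9.74% of all genes) and 8 below (23.5%, against 9.38%), with a median of -0.01. Fas, the death receptor, stood at 3.15 FPKM in control, 7.97 in HU and 10.2 with nanocages, a ratio of 1.28 (1.09 to 1.5). Pmaip1, which encodes the death promoter NOXA, stood at 28.2, 58.9 and 66.2 FPKM, a ratio of 1.12 (1.07 to 1.18). Aen, a nuclease of p53-dependent death, was lower with a ratio of 0.903 (0.864 to 0.945). In the wider apoptosis list 5 of 34 were above (14.7%) and 3 below (8.82%). Mcl1, which opposes death and is bound by NOXA, went from 245 to 281 FPKM, a ratio of 1.15 (1.12 to 1.17). Bad, which promotes death, went from 9.61 to 8.23 FPKM, a ratio of 0.856 (0.735 to 0.997). Members on both sides of cell death were therefore above counting error.

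Mitosis genes had 7 of 48 above (14.6%, against 9.74% of all genes) and 2 below (4.17%, against 9.38%). Kif20b had a ratio of 1.18 (1.06 to 1.32), Ndc80 1.13 (1.02 to 1.26) and Prr11 0.832 (0.716 to 0.966). These 3 genes had control levels of 17.0, 22.6 and 23.6 FPKM, all above both treated libraries. Genes of replication and nucleotide supply had 8 of 57 above and 6 below, with Dbf4, the activator of the CDC7 kinase, at 1.10 (1.02 to 1.19) and Ccne1, a cyclin of S phase entry, at 0.910 (0.850 to 0.976).

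In the lipid lists most genes lay within counting error. Lipid efflux and storage had 4 of 15 below (26.7%, against 9.38% of all genes), none above (9.74% of all genes) and 11 within. Its median was -0.06. Apoe, the apolipoprotein that macrophages secrete with cholesterol, stood at 3.94 FPKM in control, 8.41 in HU and 6.88 with nanocages, a ratio of 0.818 (0.692 to 0.966). Abcg1, a cholesterol exporter, went from 5.62 to 4.78 FPKM, a ratio of 0.850 (0.739 to 0.978), and entered the comparison through its HU level alone, which favours a lower value. Plin3, a coat protein of lipid droplets, had a ratio of 0.821 (0.704 to 0.957). Cholesterol synthesis had 5 of 31 below (16.1%) and 2 above (6.45%). Fdft1, squalene synthase, had a ratio of 0.825 (0.736 to 0.925) and Lss, lanosterol synthase, 0.878 (0.816 to 0.943).

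The remaining lists were mixed. Actin cytoskeleton genes had 7 of 45 above (15.6%, against 9.74% of all genes) and 8 below (17.8%, against 9.38%). They ran from Tmsb10 at 0.805 (0.672 to 0.963) to Rac1 at 1.10 (1.06 to 1.14). Proteasome genes had 5 of 34 above (14.7%) and 3 below (8.82%). Chromatin regulators had 5 of 43 above and 6 below, with Setd2, the methyltransferase of histone H3 lysine 36, at 1.16 (1.10 to 1.22) and Kmt2d at 0.902 (0.867 to 0.939). Splicing factors had 9 of 45 above (20%) and 6 below (13.3%). With the TMM factor the larger side changed for splicing factors (6 above, 9 below), heat shock (3 and 5), endosome and Rab trafficking (2 and 4), proteasome (4 and 5) and replication (6 and 10), so no direction is given for these lists. With the GC trend removed the counts were 2 above and 7 below for splicing factors, 10 and 4 for actin, 4 and 2 for the lysosome, 3 and 5 for heat shock, 4 and 6 for the integrated stress response, 3 and 4 for p53 targets and 4 and 3 for mitosis.

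Where exons of a named gene overlap another gene, mostly on the other strand, the count may hold reads of both. Beside the overlaps given above, this applies to P2rx7, Rps13, Gm4149, Mt2, Lemd2, Lcmt1, Enkd1, Lin37, Paqr4, Oasl1, Dab2, Rac1, Nfkbib, Hsp90b1, Sqstm1, Map1lc3b, Plk1, Cdkn1a, Ftl1, Slc2a1, Atg4d, Lss, Psph, Bad, Ndufs3, Ndufa2, Malat1, Rps2, Fdft1, Pam16, Gm16350 and Rn18s-rs5.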

How the data were processed

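RNA of 3 cultures of RAW 264.7 cells was sequenced, 1 library each. The authors deposited 1 table of raw read counts, whole numbers without normalization. The deposited FPKM columns equal the count divided by exonic size and by the summed count of the library, within 0.0051, for 100% of genes. The other deposited column used is the exonic size in bases, per the file headers. Per the submitters' processing notes, the build was mm10 and the tools were HISAT2 2.0.1, SAMtools 0.1.18, HTSeq 0.6.1, DESeq, cutadapt and bcl2fastq 2.17.1.14. Their settings, the annotation release, the strand setting and the treatment of reads with several matches are not stated there.

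From the counts, CPM ratios were computed in Python 3.11.15 with exact Clopper-Pearson 95% intervals from SciPy 1.17.1, which were checked on simulated data. With 1 library per condition no model was fitted. Biotypes, positions and transcript GC came from GENCODE M21, which holds 98.2% of the gene identifiers, and near-identical copies from BLAST 2.17.0 (at least 95% identity over at least 150 bases). Promoters are from RefSeq, GRCm38.p6.

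Named genes were the 15 highest and 15 lowest protein-coding genes beyond counting error, 5 of each among other biotypes, per list the 4 genes or fewer farthest from a log2 ratio of 0, and Cdkn1a, Mdm2, Plk1, Rrm2, Map1lc3b and Sqstm1. A gene named outside this rule is identified as such or is a copy, neighbour or marker, and 1 of the 15 lowest is not reported here. The compared genes and all 38 lists were chosen with earlier results of these data known. Alternatives were other size factors (median of ratios, TMM of edgeR 4.0.16), other FPKM minimums and pseudocounts, protein-coding genes only, and trends over exonic size and GC content removed. The GC trend was chosen after seeing the data.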

Additional observations from a re-analysis of the deposited data

How the results depend on the processing

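The counts of genes beyond counting error depended mainly on the FPKM minimum. At 20 FPKM 396 genes were above and 488 below, 22 and 17 of them by 1.2-fold and 5 and 4 by 1.5-fold. At 1 FPKM 218 and 159 genes passed 1.2-fold and 64 and 43 passed 1.5-fold. With any gene of at least 1 read these became 333 and 236, and 169 and 114. Among protein-coding genes alone 4 were higher and 2 lower by 1.5-fold. The shares moved with the minimum as well. At 20, 5 and 1 FPKM 0.642%, 1.22% and 1.96% of genes passed 1.2-fold on the higher side. On the lower side these were 0.496%, 0.892% and 1.43%. Scaling by median of ratios gave 688 above and 828 below, and TMM 578 and 967. With the GC trend removed 646 and 652 remained past the interval. No gene beyond counting error among the 185 named changed direction under 6 alternatives. Each change in log2 ratio was set against the mean distance from the log2 CPM ratio to the ends of its interval. This margin is wide for genes with few reads. Of 1110 values 1105 stayed within it. The 5 others were Gm10705 and Gm10031 with 5 FPKM added, and Hsp90b1, Tfrc and Ftl1 with the GC trend removed. Of 145 named genes beyond counting error, 21 had an interval that included 1 with the GC trend removed. With the exonic size trend removed this held for 5, among them Pam16, and with TMM or median of ratios for 1 each. No replicate could be left out. No paired analysis was possible because each condition had 1 library and the labels carry no replicate numbers. Depth limits genes under about 100 reads, such as Mir763 and Gm9836.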
